A study of Mus musculus with 8 samples.

Results

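Interferon-gamma induced GTPases and the transcription factor Irf1 were followed in whole pancreatic tumours of mice given saline or the peptide TLQP21. The set held 10 genes of the 54532 in the count table, taken by gene name: the guanylate-binding proteins Gbp2, Gbp3, Gbp5, Gbp6 and Gbp7, the immunity-related GTPases Irgm1, Irgm2, Igtp and Iigp1, and Irf1. The 8 libraries came from C57BL/6 mice with orthotopic tumours of KPC cells, which are a cultured line of mouse pancreatic cancer. In the Saline group, 4 libraries followed 2 weeks of saline, and in the TLQP21 group, 4 libraries followed 2 weeks of TLQP21, which is derived from the secreted precursor VGF. All tumours shared the one cell line, and the labels name no age, sex, dose or allele. The submitters sought transcripts that accompany reduced tumour growth with TLQP21. Whole tumours hold malignant cells together with stromal and immune cells and some adjacent pancreas, so fewer cells of a type and less RNA per cell cannot be told apart. The labels do not say that each library came from its own animal, and p-values measure the spread between these libraries, which may be technical.

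Interferon-gamma is released by activated T and natural killer cells and binds a receptor made of the chains Ifngr1 and Ifngr2. The kinases Jak1 and Jak2 on that receptor start a signal that acts at DNA elements called GAS and switches on Irf1, and Irf1 binds interferon response elements in many further genes. The GTPases encoded by Gbp and Irg genes are among the strongest targets of this pathway in mouse cells, where they gather on vacuoles that hold microbes and help to break them. In tumours their transcripts are widely used as a sign of interferon-gamma signalling.

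The promoters are shown as a description of sequence, searched for letters that this pathway's factors are known to bind. Whether these letters bear on how the genes varied between libraries was not tested. Promoter windows in the RefSeq table (build GRCm38.p6, 300 bases around each listed start) were found by symbol for 8 of the 10 genes, all but Gbp6 and Iigp1. They were searched on both strands for TTCNNNGAA, the GAS pattern, and for the core of interferon response elements, GAAA and GAAA with any 2 bases between them (TTTC and TTTC on the other strand). Capitals mark the matches in the bases before the most upstream listed start, 5′ to 3′ on the strand of the gene. For Gbp2, Gbp3, Gbp5, Irgm1 and Irgm2 that start lies inside the span that the deposited table gives to the gene. The stretches are chr3:142620543-142620662 (plus strand) for Gbp2, chr3:142559924-142560043 (plus) for Gbp3, chr3:142496684-142496933 (plus) for Gbp5, chr3:142530216-142530335 (plus) for Gbp7, chr11:58199436-58199555 (plus) for Igtp, chr11:58214857-58214976 (plus) for Irgm2, chr11:48871421-48871540 (minus) for Irgm1 and chr11:53769894-53770013 (plus) for Irf1.
Gbp2: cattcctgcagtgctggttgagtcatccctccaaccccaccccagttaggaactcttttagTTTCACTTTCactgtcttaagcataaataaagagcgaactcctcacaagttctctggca
Gbp3: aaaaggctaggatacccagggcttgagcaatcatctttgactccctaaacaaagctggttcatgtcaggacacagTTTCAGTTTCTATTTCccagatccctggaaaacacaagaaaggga
Gbp5: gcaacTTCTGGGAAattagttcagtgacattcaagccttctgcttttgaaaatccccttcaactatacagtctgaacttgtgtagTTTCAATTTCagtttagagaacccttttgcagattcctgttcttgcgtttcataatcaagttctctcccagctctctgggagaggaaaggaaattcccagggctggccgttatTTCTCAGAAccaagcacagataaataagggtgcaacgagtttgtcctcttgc
Gbp7: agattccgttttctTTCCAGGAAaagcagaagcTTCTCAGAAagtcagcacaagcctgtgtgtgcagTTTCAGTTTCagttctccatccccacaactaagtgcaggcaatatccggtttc
Igtp: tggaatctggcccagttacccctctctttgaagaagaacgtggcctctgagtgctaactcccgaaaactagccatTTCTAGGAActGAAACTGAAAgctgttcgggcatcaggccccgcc
Irgm2: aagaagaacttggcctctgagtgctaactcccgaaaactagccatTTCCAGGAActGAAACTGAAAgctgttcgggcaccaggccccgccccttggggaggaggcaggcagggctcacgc
Irgm1: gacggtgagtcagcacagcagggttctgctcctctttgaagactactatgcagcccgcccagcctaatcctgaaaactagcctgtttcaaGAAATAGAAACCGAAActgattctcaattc
Irf1: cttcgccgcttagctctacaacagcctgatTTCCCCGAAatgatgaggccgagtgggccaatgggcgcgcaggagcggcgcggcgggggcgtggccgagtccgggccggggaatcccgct

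Of the 8 windows at these starts, 5 held TTCNNNGAA, 7 held the interferon response core, 4 held both and 8 held at least one. Gbp3 and Irf1 each had a further listed start, whose window held neither pattern and is left out of these counts. Among all 32851 windows of the same length in the table, 8.3% held TTCNNNGAA, 3.44% held the interferon response core, 0.454% held both and 11.3% held at least one. Those shares count every listed start of each gene, unlike the 8 windows, so the comparison is not like for like. The inflammasome regulator Gbp5 and its neighbour Gbp7 had 2 GAS matches each, and Irf1 had a GAS match 90 bases before its start without the interferon response core. Gbp2, Gbp3 and Irgm1 had only the interferon response core, which occurred in 2 overlapping copies in Gbp3 and Irgm1. Igtp and Irgm2, neighbours on chromosome 11, had a GAS match followed by the response core, and a 90-base stretch around these matches was identical at 87 positions (96.7%). A match describes letters only and was not measured as a bound site.

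On GRCm38, per the deposited table, Gbp5 (ENSMUSG00000105504, chr3:142493978-142522344), Gbp7 (ENSMUSG00000040253, chr3:142530342-142550149), Gbp3 (ENSMUSG00000028268, chr3:142560026-142573209) and Gbp2 (ENSMUSG00000028270, chr3:142620602-142638008) lie in a cluster on chromosome 3. Gbp2b, which is outside the set, lies between Gbp3 and Gbp2 there. Gbp6 (ENSMUSG00000104713, chr5:105270702-105293698) belongs to a second cluster on chromosome 5. Irgm1 (ENSMUSG00000046879, chr11:48861968-48871683), Irf1 (ENSMUSG00000018899, chr11:53770014-53778374), Igtp (ENSMUSG00000078853, chr11:58199556-58207591) and Irgm2 (ENSMUSG00000069874, chr11:58199618-58222782) lie on chromosome 11, and Iigp1 (ENSMUSG00000054072) on chromosome 18. All 10 are annotated as protein-coding. In GENCODE M21, Igtp and Irgm2 share 162 exon bases on the same strand, which is 8.01% of the exon bases of Igtp and 4.39% of those of Irgm2, so reads there are uncertain. Gbp6 shares 28.99% of its exon bases with the gene Gm43302, which had 14 reads in all, and Gbp7 shares 11.35% with Gm43802, which had 0. Reads in these shared bases are uncertain too, and the low counts of Gm43302 and Gm43802 do not settle where they went. Irf1 overlaps the antisense gene Gm17334 at 3.4% of its exon bases, and whether counting used strand is not given in the sources used here. GBP and IRG genes are families of similar copies, so reads can also be split or lost among relatives.

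Levels are CPM, counts divided by the library total after its trimmed-mean (TMM) scaling, on the usual parts-per-M scale. All 10 genes passed the filter on low counts. Per kilobase of gene length and over all 8 libraries, Gbp2 was the most abundant at 193 ± 50.6 CPM per kb (SD, n = 8). Iigp1 followed at 114 ± 33.1, Igtp at 84.3 ± 21.5, Gbp3 at 57.8 ± 13.4 and Irf1 at 56.1 ± 13.9 CPM per kb. Lower levels were 34.3 ± 7.18 for Irgm2, 30.9 ± 6.05 for Irgm1, 28.9 ± 6.31 for Gbp7, 16.5 ± 6.63 for Gbp5 and 5.76 ± 1.48 CPM per kb for Gbp6. Neighbours whose mean levels lay closer than the larger of their SDs were Iigp1 and Igtp, Gbp3 and Irf1, Irgm2 and Irgm1, and Irgm1 and Gbp7. Within libraries, however, each neighbour held its place in 8 of 8, except Gbp3 above Irf1 (4 of 8) and Irgm1 above Gbp7 (5 of 8).

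Summed counts ran from 28.4 to 29.0 M in Saline and from 29.0 to 33.5 M in TLQP21, each TLQP21 library being deeper than each Saline library. The 10 genes took 0.151 to 0.294% of counts, with at least 723 reads per gene and library. Saline 2 had 0.456% of counts from 7 hepatocyte genes, against 0.0288 to 0.0670% elsewhere, and Saline 4 had the most from 8 acinar genes (3.996%, against 0.825 to 2.38%). Epithelial keratins were abundant in every library, the leading one, Krt8, being at 1499.8 ± 48.4 CPM in Saline and 1603 ± 73.8 in TLQP21. Libraries 1 and 2 of each group had 9960 to 10625 reads of Xist and those numbered 3 and 4 had 0 to 14, with 2027 to 2247 reads of 4 Y-linked genes in the latter and 1 to 20 in the former, a split that the labels do not mention.

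Between treatments, every one of the 10 genes had a log2 fold change (TLQP21 minus Saline) below 0, from -0.21 for Irgm2 to -0.77 for Gbp5, and none passed the test. Their median was -0.34, beside 0.00 over the 18238 genes tested, of which 49.4% lay below 0. In edgeR's quasi-likelihood test with Benjamini-Hochberg adjustment over all genes, 0 of the 10 passed the threshold of 0.05, as did 0% of all genes, and each of the 10 had an adjusted p = 0.9999. Unadjusted p lay under 0.05 for 2 of them, Gbp5 and Gbp6, against 2.26% of all genes with lower values in TLQP21. DESeq2 likewise passed 0 of 10 after adjustment and gave an unadjusted p under 0.05 to the same 2 genes (1.69% of all genes lower). Limma's voom with sample quality weights passed 0 of 10, its smallest adjusted p being 0.201, and gave an unadjusted p under 0.05 to 9 of them, all but Irf1 (6.62% of all genes lower). For none of the 10 genes were the 4 Saline libraries all above the 4 TLQP21 libraries, a pattern that 0.844% of all genes showed (0.811% showed the reverse).

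**Figure D1:**
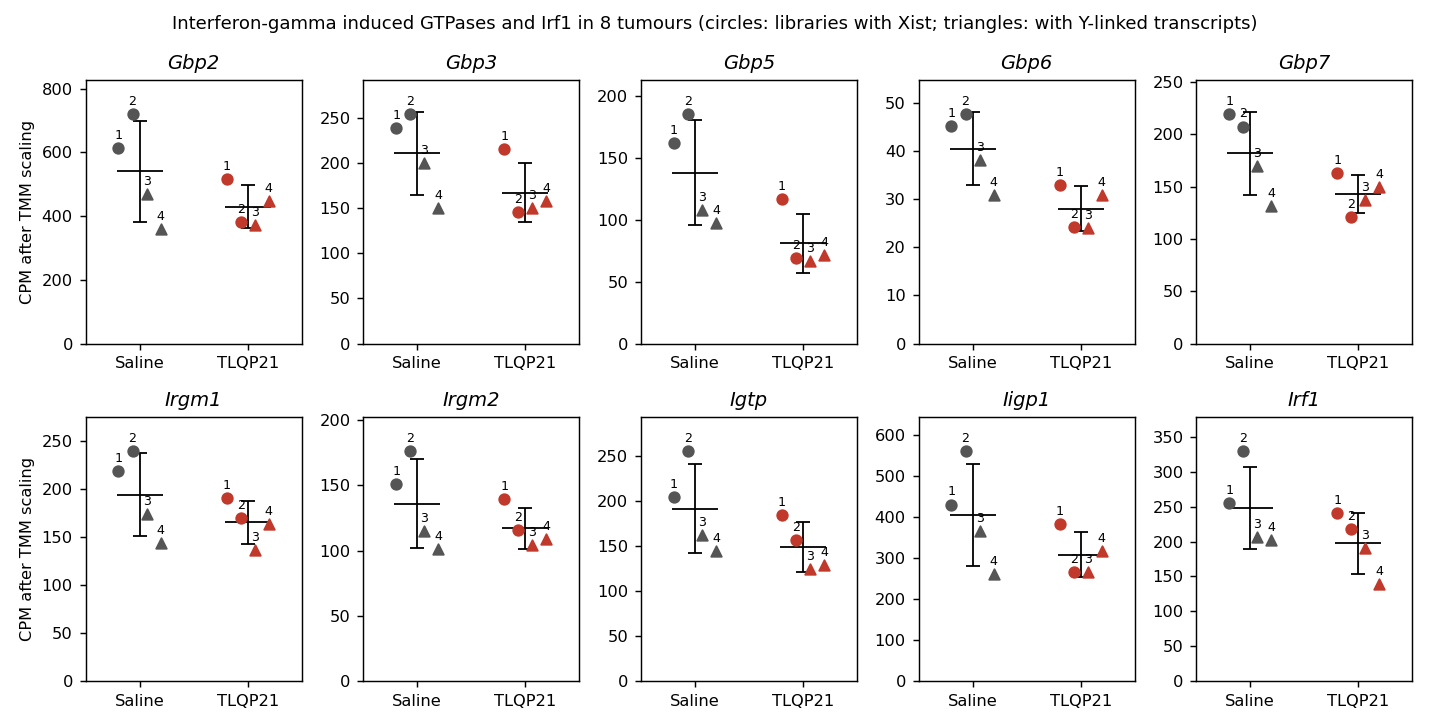
CPM after TMM scaling (vertical axis, from 0) of each of the 10 genes in the 4 Saline and 4 TLQP21 libraries, numbered by replicate, with the group mean and SD as bars; circles are libraries with Xist and triangles those with Y-linked transcripts. Saline 2 was highest for 9 of the 10 genes, and the groups overlapped for every gene.

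Gbp5, which encodes a guanylate-binding protein known to promote inflammasome assembly, was the member that lay furthest below Saline. It was at 162, 185, 108 and 97.6 CPM in Saline 1 to 4 and at 116, 69.3, 67.0 and 71.3 in TLQP21 1 to 4. The groups overlapped only through TLQP21 1, which lay above Saline 3 and Saline 4. Group means were 138 ± 42.3 and 81.0 ± 23.7 CPM (SD, n = 4 per group; log2 fold change -0.77, SE 0.24). As a ratio this was 0.587, with a 95% interval from 0.402 to 0.855 that is not adjusted for the number of genes. Gbp6, from the chromosome 5 cluster, was at 45.3, 47.7, 38.2 and 30.86 CPM in Saline and 33.0, 24.3, 24.0 and 30.94 in TLQP21. The groups overlapped only through Saline 4, which lay below TLQP21 1 and just below TLQP21 4, and its means were 40.5 ± 7.59 and 28.1 ± 4.60 CPM (-0.53, SE 0.16; ratio 0.693, interval 0.538 to 0.891).

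Gbp2, Gbp3 and Gbp7, the other 3 guanylate-binding proteins of the set, lay closer to Saline. Gbp2, a GTPase that coats microbial vacuoles, was at 613, 720.2, 471 and 359.6 CPM in Saline and 517, 383, 371 and 448 in TLQP21. The lowest library was in the Saline group, and the means were 541 ± 158 and 429.7 ± 67.1 CPM (-0.33, SE 0.21). Gbp3 was at 239, 254, 199 and 150.2 CPM in Saline and 215, 145, 150.5 and 158 in TLQP21. Its TLQP21 1 value lay above 2 of the Saline libraries, with means of 211 ± 46.3 and 167 ± 32.3 CPM (-0.33, SE 0.18). Gbp7, which has been linked to the delivery of antimicrobial oxidase, was at 219, 208, 169 and 131 CPM in Saline and 163, 121, 137 and 150.1 in TLQP21. Saline 1 and 2 stood above every other library, and the means were 182 ± 39.9 and 143 ± 18.0 CPM (-0.35, SE 0.16). The 95% intervals of these 3 genes reached from ratios of 0.578 to 1.09 for Gbp2, 0.600 to 1.05 for Gbp3 and 0.610 to 1.01 for Gbp7. Without Saline 2, Gbp2 was at -0.16.

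Among the immunity-related GTPases, Iigp1, an effector that is loaded onto the vacuole of Toxoplasma, was at 430.2, 559, 366 and 261 CPM in Saline and 383, 265, 267 and 316 in TLQP21. Saline 4 was the lowest library of all, and the means were 404 ± 125 and 308 ± 55.4 CPM (-0.39, SE 0.22). Irgm1, Irgm2 and Igtp encode the regulatory subgroup, which sits on the membranes of the cell itself and keeps the effectors inactive there. Igtp was at 205, 255, 162 and 145 CPM in Saline and 185, 157, 125 and 129 in TLQP21, with means of 192 ± 49.3 and 149 ± 27.7 (-0.36, SE 0.19). TLQP21 1 and 2 lay among the Saline values. Irgm1 was at 219, 239, 174 and 144 CPM in Saline and 190.2, 169.6, 137 and 163 in TLQP21 (means 194 ± 42.9 and 165 ± 22.1; -0.23, SE 0.16). Irgm2 was at 151, 176, 115 and 101 CPM in Saline and 139, 116, 104 and 109 in TLQP21 (means 136 ± 34.1 and 117 ± 15.6; -0.21, SE 0.17). Both groups of these 2 genes ran over nearly the same lower range, and only Saline 1 and 2 exceeded every TLQP21 library. Without Saline 2 the log2 fold changes were -0.12 for Irgm1, -0.07 for Irgm2 and -0.20 for both Igtp and Iigp1. Without Saline 4 they were -0.36 for Irgm1 and -0.34 for Irgm2, and without TLQP21 3 Irgm1 was at -0.15.

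Irf1, the transcription factor that drives many later targets, was at 256, 329.6, 207 and 203 CPM in Saline and 242, 219, 191 and 139 in TLQP21. TLQP21 4 was the lowest library and Saline 2 the highest, with means of 249 ± 59.0 and 198 ± 44.1 CPM (-0.33, SE 0.20; ratio 0.795, interval 0.584 to 1.08). Leaving out Saline 2 changed Irf1 to -0.17, and leaving out TLQP21 4 changed it to -0.20.

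**Figure D2:**
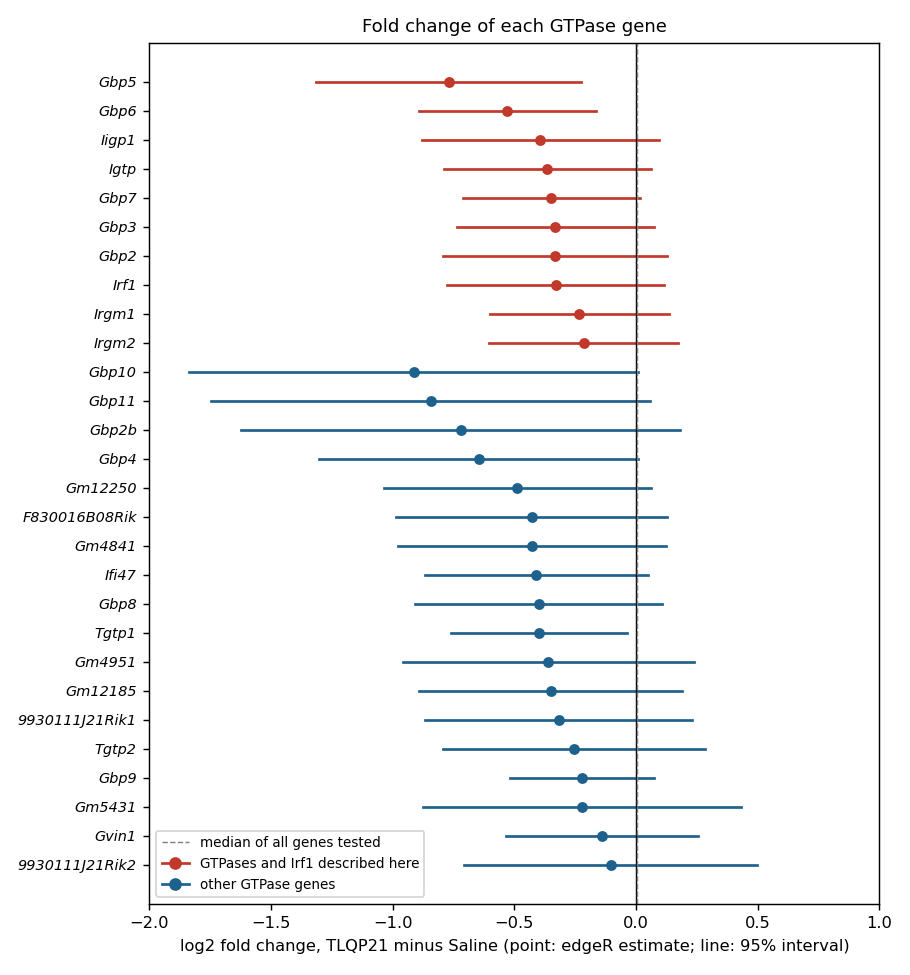
Log2 fold change, TLQP21 minus Saline (horizontal axis), of the 10 genes (red) and 18 other interferon-inducible GTPase genes (blue), with points for edgeR estimates, lines for unadjusted 95% intervals and a dashed line at the median of all genes tested. All 28 points lie left of 0, and among the red lines those of Gbp5 and Gbp6 do not reach it.

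The 10 genes varied together between libraries. Over the 45 pairs, Pearson's r of log2 CPM across the 8 libraries ran from 0.59 to 0.99 with a median of 0.90, as a description of libraries that share treatment, tissue mix and depth. Irf1 stood furthest from the rest, with a median r of 0.74 with the other 9 against 0.89 to 0.94 for the GTPases, and the lowest pair was Irf1 with Gbp7. The mean log2 CPM of the 10 genes, taken as their common level, was 7.72 in Saline 1, 7.91 in Saline 2, 7.38 in Saline 3 and 7.10 in Saline 4. In TLQP21 1 to 4 it was 7.47, 7.08, 6.99 and 7.10. Saline 1 and 2 were thus the 2 highest libraries, TLQP21 1 came next, and Saline 4 lay level with TLQP21 4 and 2. Group means of the common level were 7.53 ± 0.36 in Saline and 7.16 ± 0.21 in TLQP21 (SD, n = 4 each), which leaves a difference of -0.37, near the Saline SD.

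Gbp5 departed most from that common level. Relative to it, Gbp5 was at -0.47 in Saline and -0.86 in TLQP21 on the log2 scale (means of 4), so the group means of its relative level differed by -0.39, about the size of the common difference itself. For Gbp6 the relative level differed by -0.16, for Irgm1 by 0.15 and for Irgm2 by 0.18. For the other 6 genes it differed by 0.01 to 0.07. Only for Irgm1 and Irgm2 did the relative levels not overlap between groups, being higher in TLQP21. Those of Gbp5 overlapped through TLQP21 1 (-0.61, against -0.63 in Saline 3). How common such a separation is over all genes was not counted. Relative levels of 10 genes must sum to 0 and were looked at after the values had been seen, so no test is given.

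The level of the GTPases was also set against the kind of library, Xist or Y-linked. The common level overlapped between kinds, since TLQP21 2, with Xist, lay below Saline 3, Saline 4 and TLQP21 4. In an edgeR fit with both treatment and kind of library, all 10 genes had estimates below 0 for libraries with Y-linked transcripts against those with Xist (log2 differences from -0.25 to -0.59, median -0.41; 47.8% of all genes lay below 0). None of the 10 passed over all genes, where 0.373% of genes did, and 7 had an unadjusted p under 0.05 (6.52% of all genes lower). Igtp had the smallest adjusted p = 0.0951 in that edgeR fit, with 200.4 ± 41.5 CPM in the 4 libraries with Xist and 140.3 ± 16.9 in the other 4 (-0.51, SE 0.10). Irf1 was at 261 ± 47.9 and 185 ± 31.1 CPM (-0.50, SE 0.12), and Gbp5 at 133 ± 51.3 and 85.9 ± 19.8 (-0.59, SE 0.16).

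Within the libraries with Xist, log2 ratios of TLQP21 to Saline ran from -0.35 (Irf1) to -0.90 (Gbp5), and within those with Y-linked transcripts from -0.02 (Gbp2) to -0.57 (Gbp5), with 2 libraries per group in each. In the Y-linked libraries Irgm2 was at -0.02, Gbp7 at -0.07 and Irgm1 at -0.08, while Irf1 was at -0.31 and Gbp6 at -0.33. The common level differed by -0.54 and -0.19 in the 2 kinds. A test of whether the treatment difference itself was unequal between kinds (edgeR interaction term) gave adjusted p between 0.842 and 0.976 for the 10 genes, so an inequality was not shown. With kind as a covariate the treatment differences were -0.19 to -0.74, and none passed (smallest adjusted p = 0.995).

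Interferon-gamma itself, encoded by Ifng, was scarce, and its highest libraries were those of the GTPases. Its reads numbered 103, 199, 24 and 20 in Saline 1 to 4 and 68, 49, 26 and 29 in TLQP21 1 to 4, which is 3.51, 6.97, 0.824 and 0.756 CPM and 2.33, 1.41, 0.863 and 0.896 CPM. Saline 2, Saline 1 and TLQP21 1 were the 3 highest libraries for Ifng, as they were for the common level of the GTPases, whereas Saline 3, with 24 reads of Ifng, came next to them for the GTPases. Between treatments Ifng was at 3.01 ± 2.93 and 1.37 ± 0.683 CPM (-1.13, SE 0.68) and did not pass. Without Saline 2 it was at -0.31, and its log2 ratio was -1.49 within the libraries with Xist but 0.15 in the Y-linked kind. All 4 libraries with Xist had more Ifng than any library with Y-linked transcripts (3.55 ± 2.43 and 0.835 ± 0.0599 CPM; -1.91, SE 0.41, edgeR adjusted p = 0.111). How many of all genes were separated by kind in this way was not counted. The Pearson r of Ifng with the common level was 0.90 over 8 libraries, as a description.

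**Figure D3:**
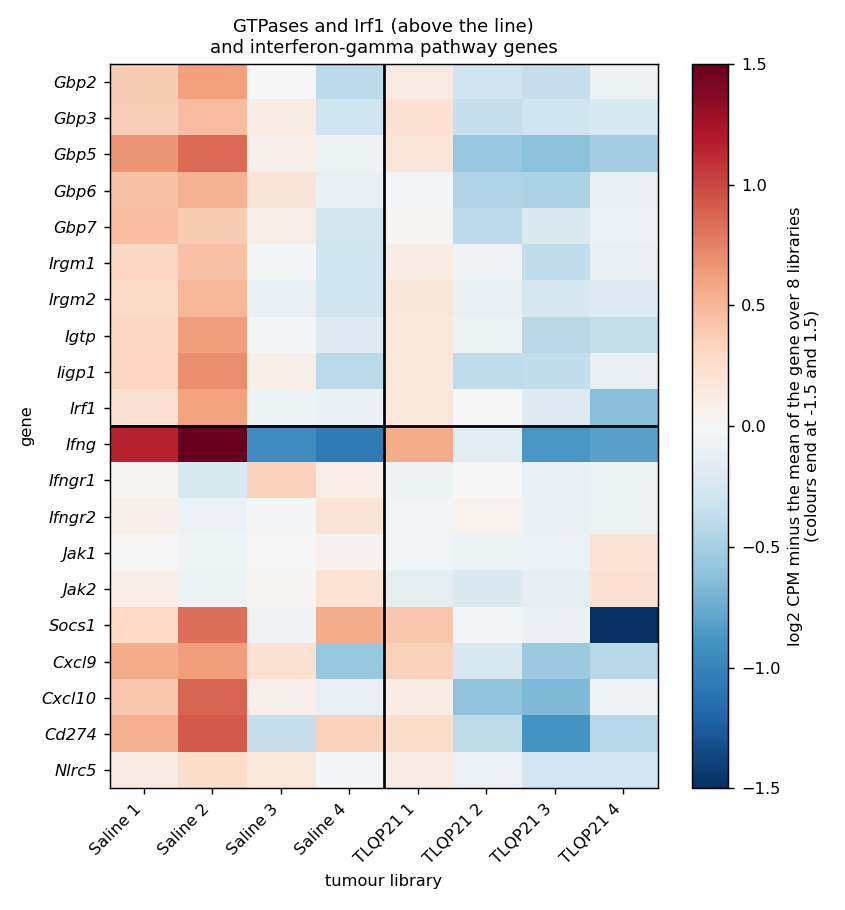
Log2 CPM minus the mean of each gene over the 8 libraries (colour, ending at -1.5 and 1.5) for the 10 genes above the line and interferon-gamma pathway genes below it, by library. Saline 2, Saline 1 and TLQP21 1 are the reddest columns for the GTPases and for Ifng, while the receptor and kinase rows stay pale.

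The receptor and kinases did not share the pattern. The receptor chains Ifngr1 (226 ± 36.6 and 206 ± 5.76 CPM) and Ifngr2 (153 ± 13.1 and 145 ± 7.01) and the kinases Jak1 (184 ± 6.45 and 185 ± 18.4) and Jak2 (191 ± 15.5 and 175 ± 25.97) had log2 fold changes between -0.14 and 0.00. Their r with the common level lay between -0.24 and -0.05. Socs1, the feedback inhibitor of Jak kinases, was at 45.3 ± 11.5 and 29.1 ± 14.7 CPM (-0.64, SE 0.39), and TLQP21 4 alone was at 8.92, without which the log2 fold change was -0.34. Socs3, an inhibitor chiefly of the IL-6 family pathway, was at 242 ± 65.6 and 156 ± 24.2 CPM without overlap (-0.63, SE 0.19). Such a lack of overlap, lower in TLQP21, was shown by 0.844% of all genes. Irf2, which counters Irf1, was at 44.1 ± 1.54 and 39.0 ± 4.81 CPM. Of the 13 signalling genes 0 passed, 11 lay below 0 and the median was -0.14.

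Upstream, 9 of 11 genes that induce or sense interferon-gamma production lay below 0 (median -0.52) and 0 passed. Leaving out single libraries put 7 (without TLQP21 3) to 11 (without TLQP21 4) of them below 0. Without Saline 2 their median was -0.29. Il27, a cytokine subunit of myeloid cells, was at 3.22 ± 1.03 and 1.23 ± 0.702 CPM (-1.39, SE 0.45), and its partner Ebi3 at 4.60 ± 0.608 and 3.01 ± 1.77. The receptor chains for IL-12 were at 7.65 ± 1.98 and 4.68 ± 1.61 CPM (Il12rb1) and at 1.06 ± 0.359 and 0.740 ± 0.1303 (Il12rb2). Interferons of type I were hardly counted: Ifnb1 had 14 reads in Saline, 12 of them in Saline 4, and 3 in TLQP21. The other 6 type I and III ligand genes listed (Ifna1, Ifna2, Ifna4, Ifna5, Ifnl2 and Ifnl3) had 0 reads in all 8 libraries. Their receptor chains Ifnar1 (152 ± 11.04 and 158 ± 21.9 CPM), Ifnar2 (63.1 ± 4.13 and 59.96 ± 7.56) and Ifnlr1 (16.5 ± 2.50 and 16.0 ± 1.24) had log2 fold changes from -0.07 to 0.05.

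Other interferon-inducible GTPase genes behaved alike in direction. All 18 were tested, all 18 lay below 0 (median -0.40), 0 passed and 1 had an unadjusted p under 0.05 (2.26% of all genes lower). That gene was Tgtp1, an IRG effector, at 69.3 ± 13.6 and 52.5 ± 8.79 CPM (-0.40, SE 0.16). Gbp4 was at 166 ± 71.6 and 106 ± 29.5 CPM (-0.65, SE 0.29), Gbp10 at 10.1 ± 5.62 and 5.39 ± 1.96 (-0.91, SE 0.41) and Gbp11 at 5.78 ± 3.68 and 3.22 ± 0.523 (-0.84, SE 0.40). Without Saline 2, Gbp4 was at -0.35 and Gbp11 at -0.37, and 17 of the 18 genes lay below 0 with a median of -0.22. Their summed CPM ran from 532 to 1114 in Saline and from 527 to 768 in TLQP21. Saline 1 and 2 exceeded every TLQP21 library, and Saline 3 (688) and Saline 4 did not.

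Targets of the pathway other than GTPases lay lower as well, with 19 of 19 below 0 (median -0.31) and 0 passing. Of these 19, 7 had an unadjusted p under 0.05 in edgeR, beside 2.26% of all genes lower. The examples with the smallest p were Acod1, which makes itaconate in macrophages, at 108 ± 46.2 and 37.8 ± 31.2 CPM (-1.51, SE 0.52), and Serpina3g at 94.3 ± 31.0 and 54.9 ± 22.6 (-0.78, SE 0.29). Nos2, the inducible nitric oxide synthase, was at 114 ± 63.3 and 43.0 ± 28.5 CPM, and the T cell attractant Cxcl10 at 107 ± 33.6 and 69.0 ± 18.3 (-0.63, and -0.40 without Saline 2). Genes chiefly driven by type I interferon had 20 of 20 below 0 (median -0.26) and 0 passing. Of these 20, 4 had an unadjusted p under 0.05 in edgeR (2.26% of all genes lower). They were led by Ifit2, Rsad2, Cmpk2 and Oas3 (log2 fold changes of -0.43, -0.57, -0.58 and -0.44). Leaving out single libraries moved the median of the list between -0.17 (without TLQP21 4) and -0.40 (without TLQP21 1). Of 13 genes that work with the GTPases in membrane conjugation or inflammasomes, 8 lay below 0 (median -0.07) and 0 passed. Nlrp3, the sensor whose assembly Gbp5 promotes, was at 35.4 ± 19.9 and 14.4 ± 6.10 CPM without overlap (-1.29, SE 0.38), and Saline 4 alone was at 65.1 against 23.3 to 27.1 in the other Saline libraries. Without Saline 4 it was at -0.82, and its log2 ratio was -0.38 in the Xist kind and -2.22 in the Y-linked kind. Casp4, the receptor of cytosolic lipopolysaccharide, was at 34.1 ± 4.68 and 25.8 ± 3.87 (-0.40, SE 0.14). The inflammasome product Il1b was at 143 ± 93.8 and 83.6 ± 32.3 CPM (-0.77, and -0.25 without Saline 4), and the protease Casp1 had a log2 fold change of -0.20.

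Markers of cells that make or answer interferon-gamma differed from one another. Of 15 T and natural killer cell markers, 7 lay below 0 with a median of 0.01, and their summed CPM ran from 70.2 to 126 in Saline and from 76.3 to 123 in TLQP21, with no marker at 0. The most abundant, Cd8a, was at 17.4 ± 3.06 and 20.4 ± 3.11 CPM. Of 10 macrophage markers 9 lay below 0 (median -0.30), with sums from 2304 to 3067 CPM in Saline and from 1696 to 2963 in TLQP21, and with Lyz2 the most abundant at 1771 ± 335 and 1360.3 ± 413. All 8 neutrophil markers lay below 0 (median -1.01), with sums of 269 to 936 and 173 to 326 CPM and S100a9 at 159 ± 114 and 65.8 ± 26.8. All 6 B cell markers lay below 0 (median -0.36; sums 102 to 233 and 84.0 to 205 CPM; Jchain 137 ± 47.7 and 107 ± 52.2). Dendritic cell markers had 5 of 9 below 0 (median -0.02; sums 46.3 to 78.3 and 50.4 to 63.6 CPM; Itgae 14.6 ± 5.69 and 17.2 ± 2.91), epithelial markers 2 of 8 (median 0.09; sums 6359.8 to 6782 and 6718 to 7051 CPM). Fibroblast markers had 5 of 8 below 0 (median -0.04; Col3a1 2786 ± 1135 and 2621 ± 484 CPM) and endothelial markers 2 of 6 (median 0.04; Pecam1 75.8 ± 13.3 and 77.4 ± 16.8 CPM). Acinar markers had 8 of 8 below 0 (median -0.50; Ctrb1 8767 ± 6133 and 6458 ± 3046 CPM). Of 6 tested hepatocyte markers 5 lay below 0, and 72633 of the 72649 Saline reads of Alb, which was not tested, were in Saline 2. Leaving out Saline 4 changed the neutrophil median to -0.49, the acinar median to 0.16 and the fibroblast median to 0.21, and leaving out single libraries put 4 to 12 of the 15 T and natural killer markers below 0. The B cell median ran from -0.18 (without Saline 2) to -0.75 (without TLQP21 3). The macrophage median ran from -0.18 (without TLQP21 3) to -0.44 (without TLQP21 1). None of the markers listed was at 0 over all libraries, and none passed. The part of these cell types in the GTPase levels was not tested.

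Across libraries the T and natural killer marker level (mean log2 CPM of the list) had r = 0.80 with the common level, the macrophage level 0.73, the neutrophil level 0.15 and the epithelial level -0.60, as a description over 8 libraries. For the other marker lists r was 0.65 (hepatocyte), 0.59 (B cell), 0.00 (acinar), -0.20 (fibroblast), -0.28 (endothelial) and -0.37 (dendritic). Saline 4, which had the most neutrophil transcripts (936 CPM against 173 to 354 elsewhere), had a GTPase level equal to that of TLQP21 4 (both 7.10). TLQP21 1, the highest TLQP21 library for the GTPases, had 123 CPM of T and natural killer markers and 2963 CPM of macrophage markers. Saline 4, despite its lower GTPase level, had nearly as much of the macrophage markers (2911 CPM, against 2893 in Saline 1). Its T and natural killer markers were at 70.2 CPM.

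**Figure D4:**
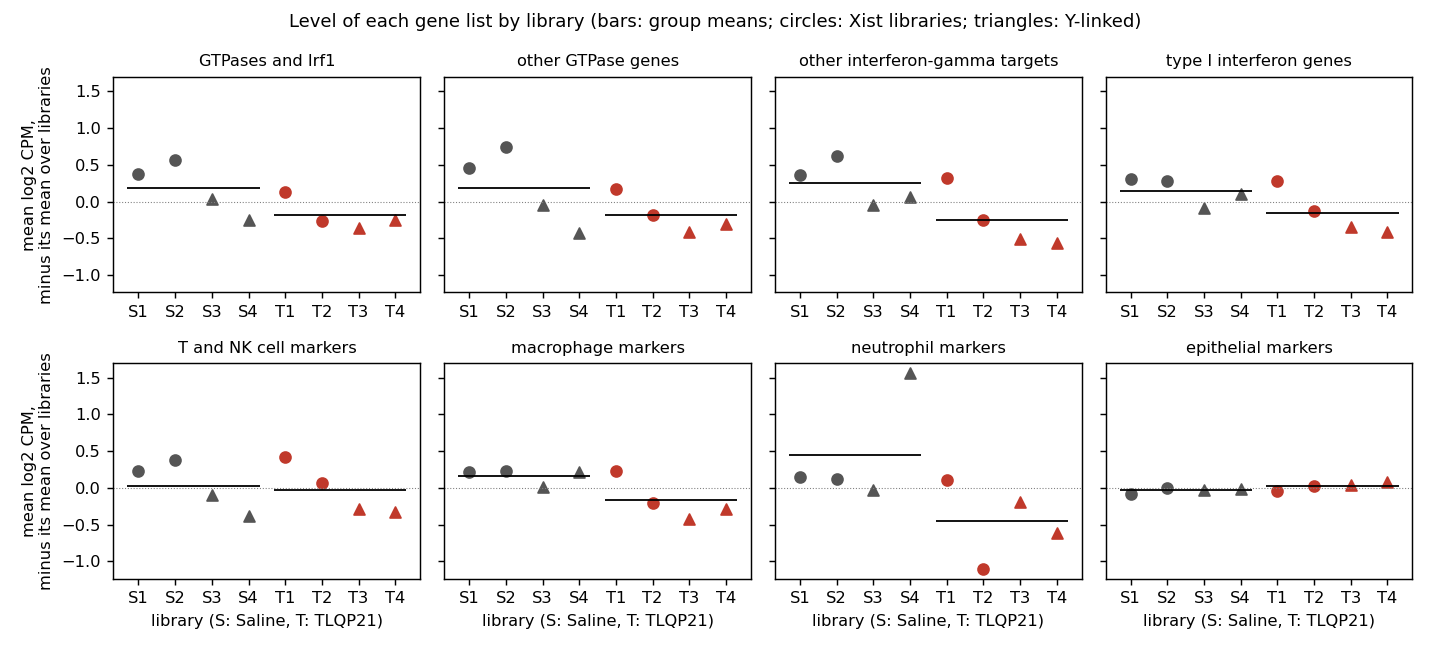
Mean log2 CPM of 8 gene lists minus its mean over the libraries (vertical axis) in each library (S, Saline; T, TLQP21), with group means as bars, circles for libraries with Xist and triangles for those with Y-linked transcripts. All panels but the neutrophil and epithelial ones share their 3 highest libraries (S1, S2 and T1). In the macrophage panel, however, S4 lies level with S1 (mean log2 CPM of 6.794 and 6.797). The neutrophil panel is led by S4.

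Genes outside the set with the pattern most like it were sought by Pearson's r with the common level over the 8 libraries. The 10 highest were Gbp4 (0.99), Rasgrp1 (0.98), Parp14 (0.98), Gbp10 (0.98), Cers6 (0.98), Gm8995 (0.98), Gm12250 (0.98), Ifi47 (0.97), Mertk (0.95) and Serpina3f (0.95), beside a 99th percentile of 0.83 over 18228 genes. An r above 0.9 was reached by 11 of the 18 other GTPase genes, 5 of 19 other interferon-gamma targets, 4 of 20 type I interferon genes and 0.433% of all genes tested. Parp14, an ADP-ribosyltransferase, was at 203 ± 25.6 and 180.3 ± 14.9 CPM. Rasgrp1, a Ras activator of lymphocytes, was at 19.5 ± 3.41 and 16.1 ± 1.85, and Mertk, a receptor of macrophages for dying cells, at 34.6 ± 7.18 and 26.2 ± 4.94.

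The size of the treatment difference depended on which libraries entered. Without Saline 2 the 10 log2 fold changes had a median of -0.20, and without Saline 4 a median of -0.48. When Saline 2 and TLQP21 4, the libraries with hepatocyte transcripts and with the lowest Socs1 and Irf1, were both dropped after the values had been seen, they ran from -0.03 (Irf1) to -0.54 (Gbp5) with a median of -0.20. Dropping Saline 2 and Saline 4 together, also chosen late, left a median of -0.35 and moved no gene by over 1.5 times. When any single library was left out, Gbp3, Gbp5, Gbp6 and Gbp7 moved by less than 1.5 times, Gbp5 between -0.60 and -0.996 and Gbp6 between -0.44 and -0.64.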

How the data were processed

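Total RNA of whole tumours was sequenced in 8 libraries as 150 bp paired ends (NEBNext Ultra RNA kit, per the labels' protocols). The deposited table gives raw integer read counts for every gene, beside gene lengths. The submitters' processing notes name the build GRCm38 (mm10) and the tools DESeq2 1.32.0, featureCounts 1.5.0-p3 and HISAT2 2.0.5; annotation release and strand setting are not given in the sources used here. Groups and replicate numbers came from sample titles. From the counts, 18238 genes passing edgeR's default filter by group were compared in edgeR 4.0.16 (R 4.3.3; TMM scaling, quasi-likelihood test, no covariate, Benjamini-Hochberg adjustment over all genes, threshold 0.05). Fold changes are TLQP21 over Saline. Intervals are 95% from the same fit. DESeq2 1.42.0, limma 3.58.1 (voom with sample quality weights), other scalings, no filter, a replicate block, Xist or Y-linked libraries as a covariate and separately, thinning to the smallest library and leaving out libraries were alternatives. A common level is the mean log2 CPM (prior count 2). The 10 genes and 17 lists were chosen with earlier results of these data known. Named besides the 10 genes are up to 4 genes per pathway list with the smallest unadjusted p, 7 pathway genes (1 of them not reported here), the most abundant gene of each marker list and the 10 most alike genes. No pair of libraries was identical (chi-square per degree of freedom at least 21.1 in 28 pairs), and the test was run on simulated data first. Counting error is small at these depths, and the spread between libraries sets the precision.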

Additional observations from a re-analysis of the deposited data

Results flagged for a closer look

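Gbp5 in TLQP21 1, at 116 CPM, stood apart from the other 3 TLQP21 libraries (67.0 to 71.3 CPM). Its gap to the nearest of them was 0.914 of the range of the group, above Dixon's 95% critical value for 4 samples. It was the only such value among 22 checks of the 10 genes and their common level in both groups, where chance flags about 1 group in 20.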

How the results depend on the processing

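All 10 genes stayed below 0 and none passed the threshold under any of the 21 alternatives run for them (2 of these, within each kind of library, had no test), and the common level differed by -0.19 to -0.54. Of all genes, 0 passed in edgeR with 558 at an unadjusted p under 0.05; DESeq2 passed 4 (745 unadjusted) and limma's voom 1 (1932 unadjusted), none of them among the 10. Leaving out each library in turn gave 0 genes each time and common-level differences from -0.24 (without Saline 2) to -0.51 (without Saline 4). Scalings gave medians of the 10 fold changes from -0.32 to -0.34, thinning -0.34, and voom -0.55, where 5 genes (Gbp2, Gbp3, Gbp7, Irgm2 and Iigp1) moved by over 1.5 times; the cause was not tested. With the replicate number as a block, 0 genes passed and the 10 genes ran from -0.19 to -0.76; it changed no call. Nothing in the labels pairs equal numbers, and deviations of same-numbered libraries correlated between -0.05 and 0.27, so the samples were not treated as paired; equal numbers do share the kind of library (1 and 2 Xist, 3 and 4 Y-linked), which the block therefore carries. The counts are deep for these genes, and 4 libraries per group limit what can be told apart.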
